A study of Mus musculus with 11 samples.

Results

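The regions described here are places in the mouse genome that carried a peak of RFX1 and a peak of RFX3, no peak of RFX2, and the annotated end of 1 protein-coding gene. They were chosen by the deposited peak calls: peaks of the 3 lists that shared at least 1 bp were merged into regions, and the first RFX1 summit of a region had to lie within 1 kb of the start or end of exactly 1 gene (RefSeq, GRCm38.p6). The rule kept 731 of 11236 regions (6.51%, 95% exact Clopper-Pearson interval 6.06 to 6.98%). They were 17.0% of the 4298 regions with RFX1 and RFX3 but not RFX2. Of the others in that class, 3406 had no gene end within reach and 161 had the ends of 2 or more genes. Because peak calls chose the regions, their peak values below are descriptions and were not tested.

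The RFX family shares a winged-helix DNA-binding domain that reads the X-box, a DNA element made of a pair of inverted half-sites with a short spacer. Its members can bind there as homodimers or heterodimers. In ciliated tissues such as the ependyma, the epithelium lining the brain ventricles, RFX2 and RFX3 are known for turning on genes that build and move cilia, and RFX1 is expressed more widely.

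Chromatin immunoprecipitation with sequencing (ChIP-seq) was done for RFX1, RFX2 and RFX3 with 2 samples each, beside 5 input chromatin samples (2 for RFX1, 2 for RFX2 and 1 for RFX3). All groups were wild-type OF1 mice of age P0, and in all of them the ependymal cells had matured ex vivo from lateral-wall brain tissue, which the labels call embryonic. The groups therefore differ in the antibody and in no genotype or treatment, and the lots of RFX2 antibody differed between its samples. Each factor had 1 deposited list of reproducible peaks already merged over its samples (RFX1 7440 peaks, RFX2 1250, RFX3 9318). The values below therefore have no replicate error, and the depth behind them is unknown. Expression was not measured in these files, so the cell type could not be checked against marker genes. A region without an RFX2 peak is one where none was called in a list that is much shorter than the other lists.

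The RefSeq promoter windows (250 bases before to 50 after a start, GRCm38.p6) were searched on both strands for an X-box pattern, GTNNCC and NGNNAC with 0 to 3 bases between them. The 8 sequences below are shown because they carry such a pattern beneath the strongest RFX1 peaks: they are the regions of highest RFX1 −log10 q whose RFX1 summit lay inside the window within 50 bp of a pattern. Each is read 5′ to 3′ on the strand of its gene, and capitals mark the pattern nearest the summit.
Cabin1 (chr10:75764308-75764360, minus strand): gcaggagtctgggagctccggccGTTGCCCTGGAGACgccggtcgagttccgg
Pak4 (chr7:28598176-28598235, minus strand): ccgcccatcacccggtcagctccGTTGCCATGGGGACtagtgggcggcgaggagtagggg
Zfp287 (chr11:62731964-62732023, minus strand): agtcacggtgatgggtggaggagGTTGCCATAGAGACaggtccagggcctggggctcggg
Spout1 (chr2:30178574-30178633, minus strand): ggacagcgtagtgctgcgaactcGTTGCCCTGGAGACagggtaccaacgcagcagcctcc
Catip (chr1:74362094-74362153, plus strand): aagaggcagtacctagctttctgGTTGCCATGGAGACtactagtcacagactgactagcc
Ralgapa1 (chr12:55821162-55821221, minus strand): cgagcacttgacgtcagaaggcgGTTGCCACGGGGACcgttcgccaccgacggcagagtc
Tspyl4 (chr10:34297359-34297419, plus strand): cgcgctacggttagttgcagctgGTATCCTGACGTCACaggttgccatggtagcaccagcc
P4ha1 (chr10:59323092-59323151, plus strand): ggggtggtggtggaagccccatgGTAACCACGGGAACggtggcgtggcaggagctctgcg
In 7 of these 8 sequences 2 bases separated the half-sites, and in Tspyl4 3 bases did. The lower-case stretch gttgccatggtagc at Tspyl4 covers the RFX1 summit. It misses the pattern by a single letter and was not counted, so the marked stretch there is only the nearest exact match. The pattern centre lay 3.5 bp from the RFX1 summit at Cabin1, Pak4 and Spout1, 1.5 bp at Zfp287, 0.5 bp at P4ha1 and 14 bp at Tspyl4. Cabin1, which encodes a calcineurin-binding protein, had an RFX1 −log10 q of 143 and an RFX3 −log10 q of 51.5. Pak4, a serine/threonine kinase gene, had 140 for RFX1 and 48.7 for RFX3 on the same scale. Ralgapa1, a subunit gene of the Ral GTPase-activating complex, had the highest RFX3 value of the 8, with 122 for RFX1 and 93.7 for RFX3. None of the 8 windows held the stricter pattern described below. A −log10 q also depends on the depth of its list, so RFX1 and RFX3 values are given side by side and compared only by their place within each list.

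A start was listed for the genes of 589 of the 731 regions. The gene end nearest the RFX1 summit was the 5′ end in 542 of these 589 (92.0%, 89.5 to 94.1%) and the 3′ end in 47. At the 5′ ends the median summit lay 6 bp upstream of the annotated start (a position of −6), with quartiles at −112.8 and 147.8 bp. The summit was upstream of or at this start in 281 of 542 regions (51.8%). This start is the outer boundary of the annotated gene. A summit counted as downstream can therefore lie upstream of another listed start, so the balance of sides depends on that choice. Over all 731 regions the median distance to the gene end was 143 bp. It was within 100 bp in 295 regions, within 200 bp in 426 and within 500 bp in 607.

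**Figure D1:**
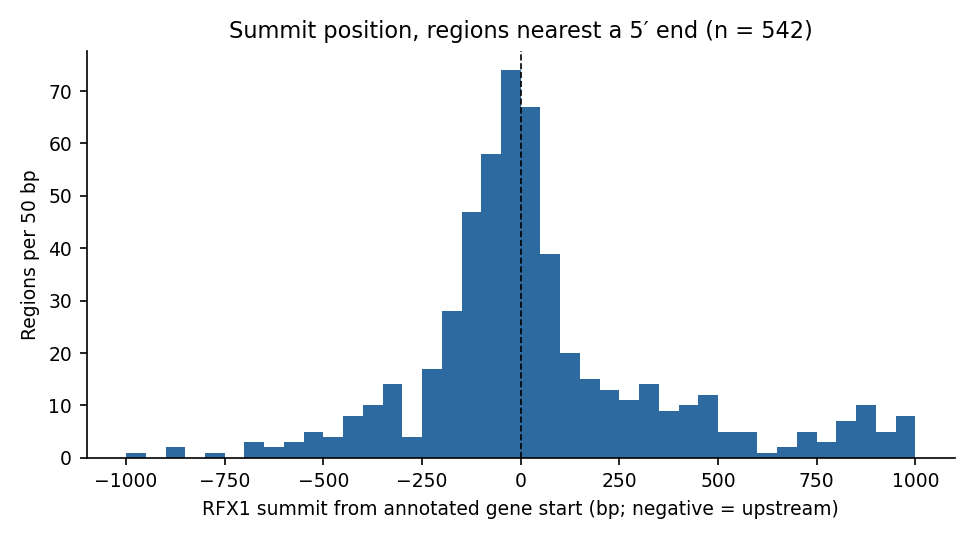
Position of the RFX1 summit relative to the annotated gene start (the outer boundary of the gene) for the 542 regions nearest a 5′ end, in bins of 50 bp. Negative values are upstream; the bars peak on both sides of the start, and the median is −6 bp.

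The share at a 5′ end was 542 of 589 in the RFX1+RFX3 regions, against 95.5% of 242 RFX1+RFX2+RFX3 regions and 90.4% of 271 RFX1-only regions placed by the same gene-end rule. Neither difference passed Fisher's exact test (two-sided, Benjamini-Hochberg over 16 tests; adjusted p = 0.262 and 0.628, with odds ratios of 0.549 and 1.22). Of the 47 regions nearest a 3′ end, 46 were more than 1 kb from a listed start. Bspry had the strongest RFX1 peak among them, with a −log10 q of 115 for RFX1 and 64.6 for RFX3. Thbs3, a thrombospondin gene, followed with 99.6 and 55.1, and Ap3m1, a subunit gene of the AP-3 adaptor, with 81.5 and 20.8. These 3 were chosen after their values were seen. At 3′ ends the median RFX3 fold was 7.12, against 4.40 at 5′ ends, and the median RFX1 fold was 6.39, against 8.43 at 5′ ends. By −log10 q both factors were lower at 3′ ends, with medians of 29.2 against 48.2 at 5′ ends for RFX1 and 23.5 against 28.75 for RFX3.

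The rule's distance limit did not fall at a gap in the data. The last regions inside it were Bace2 at 999 bp, 4933407O12Rik at 998 bp and A4gnt at 991 bp, with RFX1 −log10 q of 64.2, 16.5 and 25.1. The nearest regions outside were Ice2 at 1005 bp, Asah1 at 1016 bp and Ccdc190 at 1018 bp, with RFX1 −log10 q of 69.9, 20.4 and 82.8.

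RFX1 and RFX3 summits lay close together in most of these regions. The rule favours small gaps, because it joins only peaks that overlap. The median gap was 15 bp, with quartiles of 6 and 30 bp and a 90th percentile of 48 bp. It was at most 10 bp in 276 regions and at most 50 bp in 666 of 731 (91.1%, 88.8 to 93.1%). The widest gaps were 439 bp at Nek5, a NIMA-related kinase gene, 328 bp at Ttc12 and 150 bp at Capsl, named after their values were seen. Of all 731 regions, 727 held 1 peak of each factor, 2 held a second RFX1 peak and 2 a second RFX3 peak. An RFX2 summit lay within 10 kb of 19 of the 731 regions, and 4 genes (Thbs3, Cars, Tbcel and Fbl) had another region with RFX2 at an end.

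**Figure D2:**
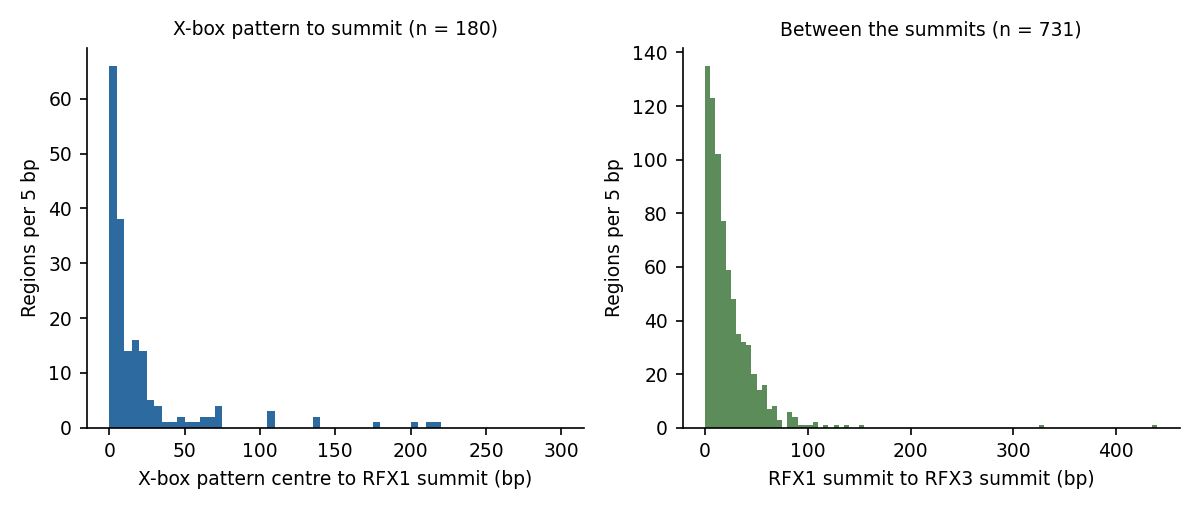
Left, distance from the centre of the X-box pattern to the RFX1 summit in the 180 regions with both inside the promoter window; right, distance between the RFX1 and RFX3 summits in all 731 regions. Both are in bins of 5 bp, and the medians are 7.75 and 15 bp.

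The peaks were of middle to high rank in their lists. RFX1 −log10 q had a median of 46.4 and ranged from 12.03 to 146; RFX3 −log10 q had a median of 28.8 and ranged from 9.0 to 131. The medians over the whole lists were 29.1 for RFX1 and 19.9 for RFX3. In RFX1+RFX3 regions with no gene end they were 26.9 and 24.2. RFX1+RFX2+RFX3 regions at 1 gene end stood higher, with medians of 117 and 68.1, and RFX1-only regions stood lower, with an RFX1 median of 20.1. Only 20 of the 731 regions had an RFX1 −log10 q above the RFX1+RFX2+RFX3 median, and 48 had such an RFX3 value. The best 10% of the RFX1 list held 75 of the 731 (10.3%) and the best 10% of the RFX3 list held 65 (8.89%). The weaker 50% of the lists held 193 (26.4%) and 219 (30.0%).

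Fold enrichment, the authors' ratio of ChIP signal over background at a peak, had a median of 8.17 for RFX1, which was above the whole-list median of 7.51. For RFX3 the median was 4.53, below the whole-list median of 7.45. RFX1+RFX3 regions with no gene end had medians of 7.33 for RFX1 and 8.26 for RFX3, and those with ends of 2 or more genes had 8.26 and 4.05. The lower RFX3 fold was found in both kinds of region at gene ends. It was not particular to RFX1+RFX3 regions: RFX1+RFX2+RFX3 regions at 1 gene end had a median of 6.18, also below the whole list. Within the RFX1+RFX3 regions at 1 gene end the lower RFX3 fold held nearest a 5′ end, with a median of 4.40, but not nearest a 3′ end, with 7.12.

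The strongest regions named a mixed set of genes. Dync2li1, which encodes the light intermediate chain of the dynein that drives retrograde transport in cilia, led the RFX1 order with a −log10 q of 146 and was second in the RFX3 order with 129. Its region spans chr17:84626227-84626724 (GRCm38), and its 2 summits lay 16 bp apart. Mafa, a basic leucine zipper transcription factor gene, had 146 for RFX1 and 58.9 for RFX3. Dym followed with 145 and 58.3, and Otub1, a deubiquitinase gene, had 140 and 26.3. The rest of the first 10 by RFX1, with values from 131 to 143, were Cabin1, Pak4, Zfp287, Gtf2f1, Fam151b and Pold2, the last being a subunit gene of DNA polymerase delta.

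Cwf19l2 led the RFX3 order with a −log10 q of 131 and had 89.4 for RFX1. Glipr1l1 had 129 for RFX3 and 58.4 for RFX1, and Ccdc158 had 128 and 93.1. The tetraspanin gene Cd63 had 102 for RFX3 and ranked high in both lists. The first 10 by RFX3 also held Dync2li1, Nacad, the splicing regulator gene Srek1, Irak1bp1, the Polycomb gene Phc2 and the anoctamin gene Ano3, and apart from Dync2li1 these had values from 94.2 to 102. Dync2li1 was the only gene in both sets of 10.

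Over the 731 regions the −log10 q of the factors had a Spearman rho of 0.406, a description across sites that share the 2 lists. Some regions ranked far apart. At Ttll13, which encodes a tubulin polyglutamylase, the RFX1 −log10 q was 95.9 (percentile 91.2 of its list, 100 being the strongest) and the RFX3 value was 9.71 (percentile 7.15). Lyrm7, an assembly factor gene of respiratory complex III, stood at percentile 78.9 for RFX1 and 8.56 for RFX3. Sh3gl3, Ccdc138 and Evi5l completed the 5 that lean most to RFX1. At Galnt2, a gene of mucin-type glycosylation, the order was turned round, with percentile 9.37 for RFX1 and 91.6 for RFX3. Deup1, which encodes the core of the deuterosome that makes centrioles in multiciliated cells, had percentiles of 3.20 for RFX1 and 78.5 for RFX3. Pes1, a ribosome biogenesis gene, Rtn1, a reticulon gene, and Vxn completed the 5 that lean most to RFX3.

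**Figure D3:**
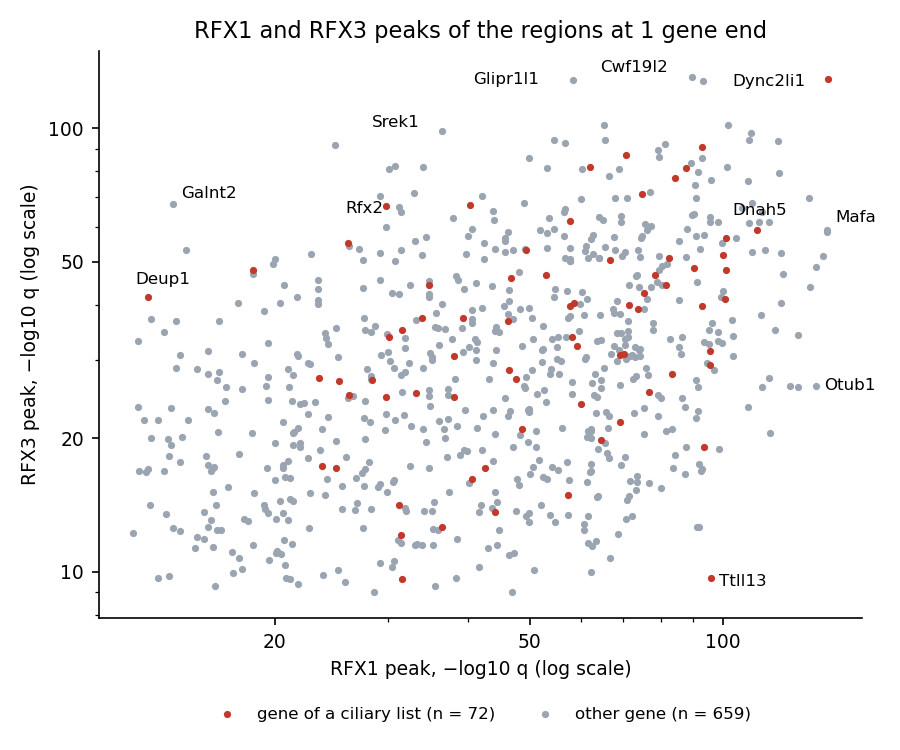
RFX1 against RFX3 −log10 q on log scales for the 731 regions, with genes of the ciliary lists in red (n = 72) and other genes in grey (n = 659). Dync2li1 is high on both axes, Ttll13 lies at the lower right and Galnt2 and Deup1 at the upper left of the cloud.

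The X-box pattern was found in the listed promoter window of 204 of 589 regions (34.6%, 30.8 to 38.6%), beside 13.6% of 21263 windows of protein-coding genes. A stricter form, GTTNCC and GGNAAC with the same spacing, is contained in the first and was found in 28 of 589 (4.75%), beside 0.762% of all windows. In the 337 regions whose RFX1 summit lay inside the window the share with the pattern was 53.4% (180 regions), and in the 252 others it was 9.52%. Of the 180, the pattern centre was within 50 bp of the summit in 161 (89.4%, 84.0 to 93.5%), with a median distance of 7.75 bp. The spacing was 2 bases in 108 of the 180, 1 base in 49, 3 bases in 18 and none in 5. Many patterns in this wide definition depart from the strict form. Among the 161, the first half-site read GTTGCC in 55 (34.2%), GTCTCC in 24 and GTTTCC in 23, and the other read GGCAAC in 31 (19.3%), AGCAAC in 23 and GGAGAC in 16. The 8 sequences printed above have GTTGCC as the first half-site in 6 cases.

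The share with the pattern was higher in groups of higher −log10 q. From the lowest to the highest of 4 equal groups by RFX1 −log10 q the share was 24.5% (17.7 to 32.4%), 28.5%, 40.4% and 45.1% (36.8 to 53.6%). This order was not tested, and summits inside the promoter window were not counted by group. Over 4 such groups by RFX3 −log10 q it was 27.6%, 30.6%, 39.1% and 41.4%. By fold the share was 24.1%, 32.7%, 39.2% and 42.4% over the RFX1 groups, but 31.2%, 39.1%, 33.8% and 34.9% over the RFX3 groups, which shows no order. The strict form showed none over the groups by RFX1 −log10 q, at 5.59%, 4.64%, 5.96% and 2.78%.

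The pattern was rarer in the RFX1+RFX3 regions than in RFX1+RFX2+RFX3 regions at 1 gene end, which had it in 126 of 242 windows (52.1%, 45.6 to 58.5%). The odds ratio was 0.488 (Fisher's exact test, two-sided, adjusted p = 6.27e-05), and for the strict form, with 10.7% in the RFX1+RFX2+RFX3 regions, it was 0.415 (adjusted p = 0.0227). Within the range of RFX1 −log10 q that both classes cover, the shares were 39.7% and 48.7% and the call was lost (Fisher's exact test, odds ratio 0.695, adjusted p = 0.389, and for the strict form 0.487 and the same p). Peak strength and class move together, and their parts in the difference cannot be told apart here. With RFX1 summits inside the window, where 53.4% of RFX1+RFX3 regions had the pattern, the difference passed Fisher's exact test for the wide form (odds ratio 0.522, adjusted p = 0.0219) and missed for the strict form (0.461, adjusted p = 0.0904). Against RFX1-only regions, with 74 of 271 (27.3%), the difference missed the threshold of Fisher's exact test (odds ratio 1.41, adjusted p = 0.183), and so did the strict form, at 2.21% of RFX1-only windows (odds ratio 2.2, adjusted p = 0.262). The p-values treat regions as if they were independent and speak of the counted regions only.

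**Figure D4:**
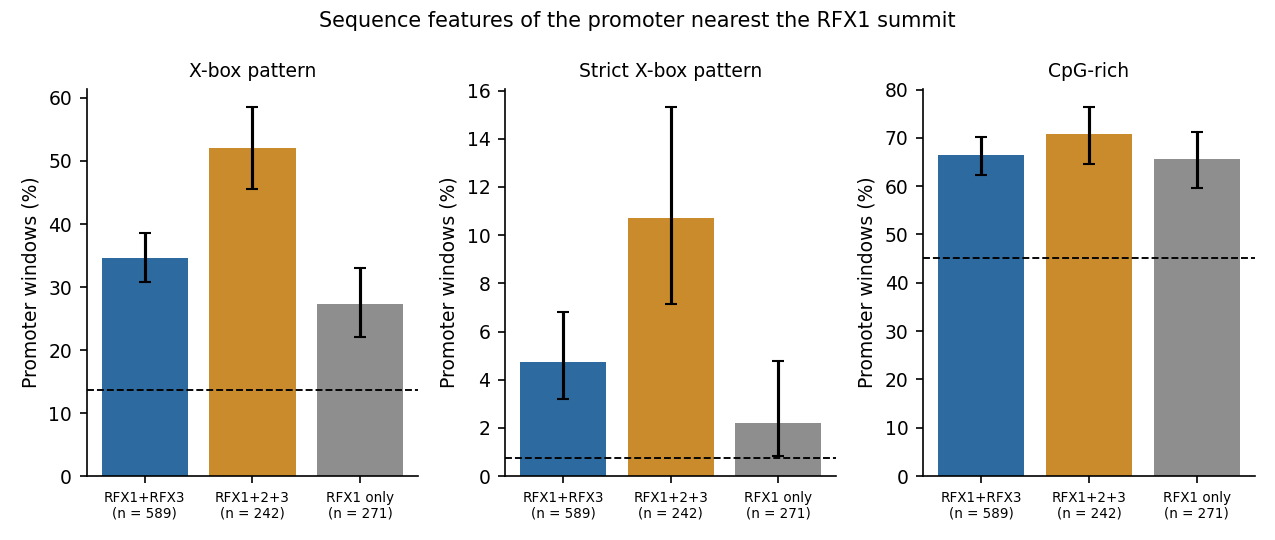
Share of promoter windows with the X-box pattern, with its strict form and with CpG-rich sequence in RFX1+RFX3, RFX1+RFX2+RFX3 (marked RFX1+2+3) and RFX1-only regions at 1 gene end; bars are shares, whiskers 95% exact intervals and dashed lines the share of all windows. The X-box share is 34.6%, 52.1% and 27.3% over a line at 13.6%, and the CpG-rich share is 66.4%, 70.7% and 65.7% over a line at 45.1%.

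The window scored was that of the listed start nearest the RFX1 summit, which lay within 1 kb in 523 of 589 regions. For the others it is a window away from the peak. Most of these windows were CpG-rich, defined as at least 50% G+C with an observed over expected CpG ratio of at least 0.6. This held for 391 of 589 windows (66.4%, 62.4 to 70.2%), beside 45.1% of all windows. It was 70.7% in RFX1+RFX2+RFX3 regions and 65.7% in RFX1-only regions (adjusted p = 0.508 and 1.0, Fisher's exact test). Median G+C was 59.0%, beside 56.3% for all windows. CpG content went with the RFX3 fold in one place: of 4 equal groups by RFX3 fold, the highest had a CpG-rich share of 45.6% and the other 3 had shares from 71.7% upward. Over 4 groups by RFX3 −log10 q the share was 63.8%, 71.4%, 68.8% and 61.8%. Over 4 groups by RFX1 fold it lay between 61.3% and 69.0%. Regions nearest a 3′ end had a median RFX3 fold of 7.12 and mostly had windows away from the peak. Their part in the RFX3 fold groups was not tested. Other promoter elements were also somewhat more common than over all windows: the NRF1 core GCGCATGC was found in 6.45%, against 3.52%, the ETS pattern CCGGAAG in 16.8%, against 11.6%, CCAAT in 44.8%, against 38.2%, and the GC box GGGCGG in 58.4%, against 46.2%. None of these 4 differed from RFX1+RFX2+RFX3 or RFX1-only regions after adjustment (adjusted p from 0.199 to 1.0, Fisher's exact test). They may overlap one another and the X-box pattern, and a match is no evidence that a factor binds. Their shares were not adjusted for the higher CpG content of these windows, and its part was not tested.

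The 731 regions belonged to 722 genes, 3.3% of the 21887 protein-coding genes. Of 285 genes in 16 lists of ciliary parts, 72 had such a region (25.3%, 20.3 to 30.7%). This was not particular to the class: 40 of the 285 had an RFX1+RFX2+RFX3 region, a class with 281 regions at 1 gene end. Any RFX summit was counted at 180 of the 285, so list genes without an RFX1+RFX3 region can have another RFX peak. That count was not made over all protein-coding genes, so it cannot be called high or low. The RFX1+RFX3 region lay at the 5′ end in all 61 ciliary cases with a listed start. Among these windows 29 of 61 held the X-box pattern (47.5%), against 175 of 528 in the other regions (33.1%). Only 481 of those 528 were at a 5′ end, and the shares were not limited to summits inside the window. The strict form was in 3 of 61 (4.92%), against 25 of 528 (4.73%), and 30 of 61 were CpG-rich (49.2%), against 361 of 528 (68.4%). Median RFX1 −log10 q was 57.8 at ciliary genes, against 45.7 at other genes, and median RFX3 −log10 q was 36.0, against 27.9. These lists were chosen with results of the same peaks known, so the counts are descriptions.

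Intraflagellar transport carries cargo along the cilium. Complex A had 3 of 6 genes with a region, Ift140 (RFX1 −log10 q 69.1), Wdr19 (42.6) and Ift43 (40.7), and the X-box pattern of Wdr19 lay 0.5 bp from the RFX1 summit. Complex B had 6 of 17. Ift81, a tubulin-binding subunit, led with 100.2 for RFX1 and 51.8 for RFX3, and Ift52 stood higher within the RFX3 list (percentile 91.5) than within the RFX1 list (percentile 64.0). Ttc30b, Ift27, Ift172 and Ift88 had RFX1 values between 31.6 and 78.4. The motors had 3 of 10: Dync2li1, Wdr60, an intermediate chain of the same dynein, with 70.7 for RFX1 and 87.1 for RFX3, and the kinesin-2 subunit gene Kif3b with 26.1 and 25.1.

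The next lists hold membrane traffic and gating genes. The BBSome, a coat complex that moves membrane proteins through the cilium, had 4 of 13 genes: Bbs9 with an RFX1 −log10 q of 92.8, Bbs4 with 90.1, Bbs7 with 57.3 and Ttc8 with 31.4. The transition zone, the gate at the ciliary base, had 7 of 25. Tmem216 and Tmem107 led by RFX1 with 82.5 and 81.5. Ahi1 stood at percentile 86.7 of the RFX3 list and 44.6 of the RFX1 list. Tmem231, Tmem17 and Cc2d2a had RFX1 values from 34.8 to 52.9. Ciliary GTPases and lipidated cargo factors had 6 of 21, from Rab28 with 83.4 for RFX1 to Cplane1 with 25.1, with Rabl2, Tbc1d32, Arl2bp and Tulp3 between them.

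Motile cilia beat by means of dynein arms on their microtubule doublets. Axonemal dynein heavy chains, the motor subunits of the dynein arms, had 7 of 15 genes with an RFX1+RFX3 region. Dnah5, a heavy chain of the outer arm, had an RFX1 −log10 q of 113 with a fold of 22.8. Dnah11, another outer-arm chain, had 101 for RFX1 and 56.6 for RFX3. Dnah12 had 93.0 and 90.8, which placed it in the best 10% of both lists, and Dnah9, Dnah7a, Dnah6 and Dnah7b had RFX1 values from 23.4 to 76.6. None of the 7 promoters was CpG-rich, although the listed start of Dnah5 lay far downstream of its peak. Dnah7a and Dnah7b are close paralogs, so reads shared by the copies are uncertain.

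Intermediate, light and docking chains had 7 of 18, with Ttc25, an outer-arm docking gene, at 75.3 for RFX1 and Wdr63, an inner-arm intermediate chain, at 66.8 for RFX3 and 29.9 for RFX1. Dynlrb2, Dnal1, Ttc29, Armc4 and Dnali1 were the others. Assembly factors had 4 of 18: Daw1 (RFX1 −log10 q 93.4), Zmynd10 (84.1), Ruvbl1 (57.8) and Cfap300 (23.7). Zmynd10 also had a high RFX3 value of 77.4, and Daw1 had 19.1. Radial spokes, which link the outer doublets to the central pair, had 4 of 16 listed genes (Rsph9, Armc4, Iqub and Dnajb13, of which Armc4 is better known as a docking gene and was counted in both lists), with RFX1 −log10 q between 28.4 and 48.5. The nexin-dynein regulatory complex had 3 of 12, led by Drc1 with 74.8 for RFX1 and 70.9 for RFX3, with Drc7 and Tcte1. Tcte1 encodes a subunit of that complex and was also on the regulator list described below. The central pair apparatus had 5 of 17, namely Spef1, Cfap46, Cfap70, Spag6l and Spag16. Spef1, a microtubule-binding gene, had 87.6 for RFX1 and 81.2 for RFX3. Microtubule inner proteins had 4 of 25, among them Fam183b with 95.5 for RFX1, Tekt1 with 57.8 and Efhb with 46.7.

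The remaining lists, for tubulin modification, the ciliary base and regulation, had shares from 0 to 17.4%. Tubulin modifying enzymes had 4 of 23 (Ttll13, Agbl4, Ttll4 and Ttll8). Basal body and appendage genes had 2 of 25 (8.0%, 0.984 to 26.0%), Odf2 and Ccp110. Centriole assembly genes had 4 of 26. Spice1 had an RFX1 −log10 q of 101, Ccno, a cyclin-like gene needed for centriole amplification, had 95.6, E2f5 had 38.1 and Deup1 had 12.7. The list for regulators of the multiciliated program had 2 of 20, Rfx2 itself and Tcte1. Tcte1 encodes a subunit of the nexin-dynein regulatory complex, so Rfx2 was the only regulator gene among them. Foxj1, Myb, Rfx1 and Rfx3 were among the genes without a region. At the 5′ end of Rfx2 the RFX1 −log10 q was 31.3 and the RFX3 value 66.4, with the RFX1 summit 60 bp downstream of the start. Hedgehog signalling had 1 of 19, Iqce, and planar cell polarity had 0 of 16, where the interval reaches 20.6%.

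**Figure D5:**
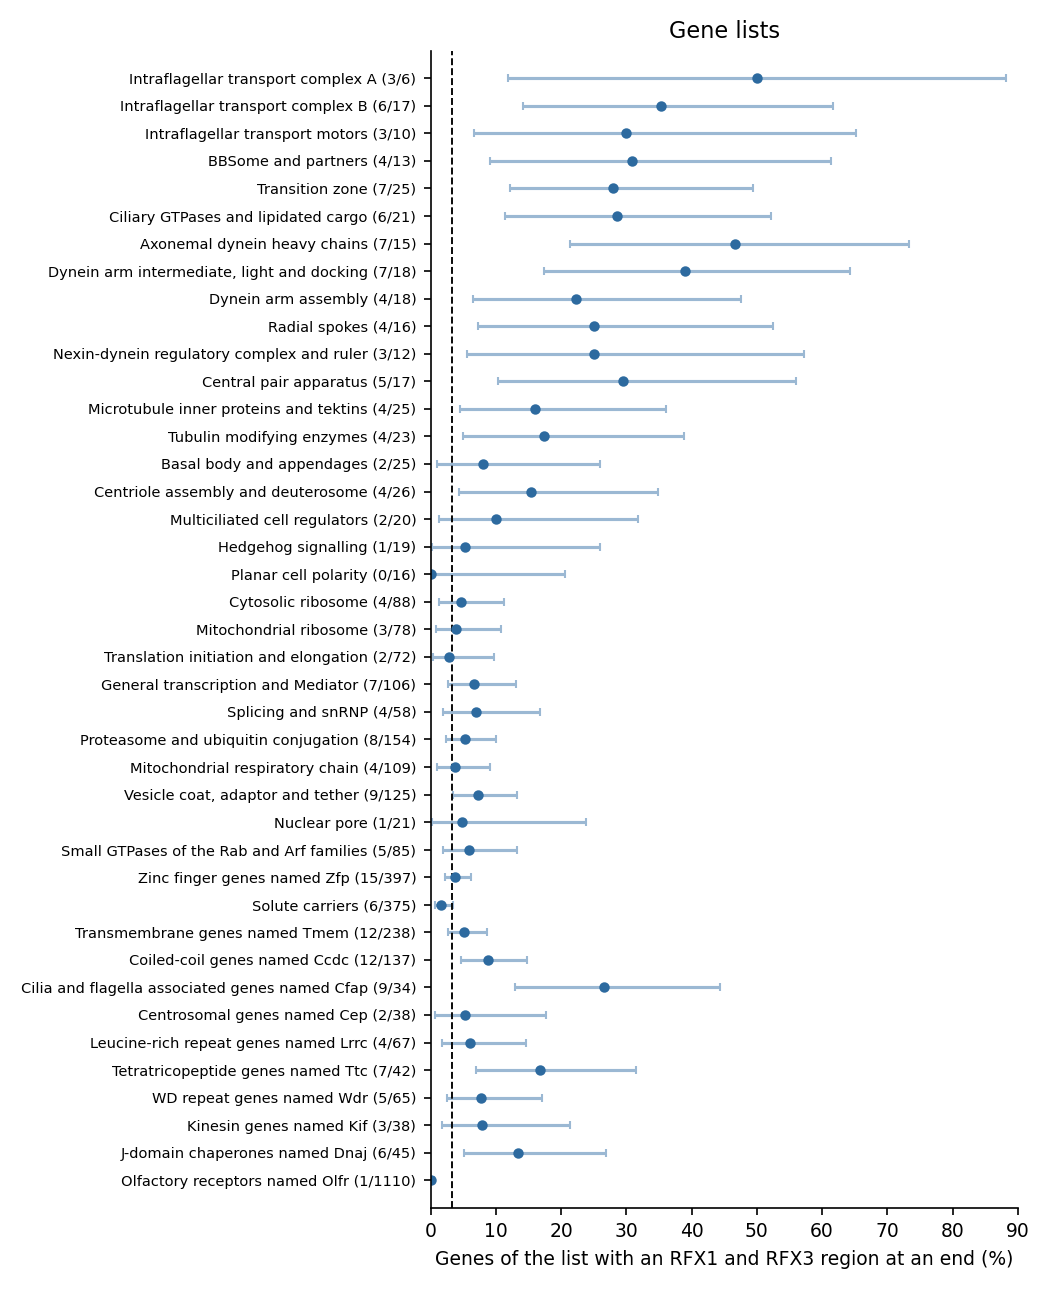
Share of the genes of each list with an RFX1+RFX3 region at an end; points are shares, whiskers 95% exact intervals, and the dashed line is the 3.3% of all protein-coding genes. The points of the first 16 lists, those of ciliary parts, all lie to the right of the line, and the intervals of most housekeeping lists include it.

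Most regions were at other genes: 659 of 731 fell outside the ciliary lists. Housekeeping lists had shares nearer the 3.3% of all genes. General transcription and Mediator genes had 7 of 106 (6.6%, 2.7 to 13.1%), including Gtf2f1 with an RFX1 −log10 q of 136, Gtf2e2 with 105 and Med25 with 74.0. Splicing genes had 4 of 58, with Sf3b5, a subunit of the U2 particle, at 124, Prpf19 at 54.8 and Srsf1 at 47.1. Vesicle coat, adaptor and tether genes had 9 of 125 (7.2%, 3.35 to 13.2%), led by Ap3d1 at 115 and Copz1 at 98.3. Proteasome and ubiquitin genes had 8 of 154, led by Psma5 at 115. Cytosolic ribosomal genes had 4 of 88, led by Rpl30 at 111, and mitochondrial ribosomal genes had 3 of 78, led by Mrps9 at 81.8. Zinc finger genes named Zfp had 15 of 397 (3.78%), and solute carriers had 6 of 375 (1.6%, 0.589 to 3.45%). Olfactory receptors had 1 of 1110. Among lists made by gene name, Cfap had 9 of 34 (26.5%), Ttc had 7 of 42 (16.7%), Dnaj had 6 of 45 (13.3%) and Ccdc had 12 of 137 (8.76%). Shares were lower for Kif (3 of 38, 7.89%), Wdr (5 of 65, 7.69%), Lrrc (4 of 67, 5.97%), Cep (2 of 38, 5.26%) and Tmem (12 of 238, 5.04%).

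A pair of regions fell at the same gene in 9 cases. At Copz1, a coatomer subunit gene, the region at the 5′ end had an RFX1 −log10 q of 98.3 and the one at the 3′ end 22.6. At Tmed10, a cargo receptor gene of the early secretory pathway, the order by position was turned, with 58.2 at the 5′ end and 62.4 at the 3′ end. Spaca9 had 57.7 and 55.4, both at the 5′ end, Elmod1 had 80.0 and 21.4, and Ankub1 had 69.4 at the 5′ end and 31.5 at the 3′ end. Ccdc153, Ccdc190, Dpf1 and Tcp11 were the other 4.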

How the data were processed

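Peaks of ChIP-seq for RFX1, RFX2 and RFX3 (6 ChIP and 5 input samples) were used as deposited, 1 merged list per factor. Tools named in the submitters' processing notes, with no role given, are MACS2 2.0.10.20130520, Bowtie 0.12.7 and CASAVA 1.8.2, and the build is GRCm38. The reproducibility criterion and the sequencing depth were not stated in the labels or files. The deposited fold enrichment is a ratio and the deposited −log10 q is on a −log10 scale, both made by the authors' peak calling. They were used only to describe or rank peaks within a list. The deposited summit offset places the summit in the peak. The deposited score was not used, and neither was the −log10 p (1 further column per list).

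Regions were made by merging peaks that share 1 bp. Genes, starts and 300-base promoter windows came from RefSeq tables (GRCm38.p6), with 21263 windows. The regions and gene lists were chosen with earlier results of these data known; list names were completed by gene-name patterns after the files were read. Intervals (95%, exact Clopper-Pearson) cover counting error only. Differences between region classes used Fisher's exact test, two-sided, with Benjamini-Hochberg adjustment over 16 tests and a threshold of 0.05, on features that the rule did not use; the steps were tested on simulated data. Genes were named by a rule: the 10 strongest regions per factor, the 5 largest rank differences each way, all genes of the ciliary lists with values for up to 6 per list, up to 3 genes of other lists, 3 regions each side of the 1 kb limit, and up to 5 genes with 2 regions. Values of some genes that this rule names are not reported here. Python 3.11.15, numpy 2.4.6, pandas 2.3.3, scipy 1.17.1, statsmodels 0.14.6 and matplotlib 3.10.9 were used. Alternatives were other distance limits, overlaps, placing summits, peak strengths and pattern definitions.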

Additional observations from a re-analysis of the deposited data

How the results depend on the processing

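No paired analysis was possible because the samples of a factor come as 1 merged list, and for the same reason no replicate could be left out. Shortening each list to its best 1250 peaks, an alternative chosen after seeing the data, left 51 regions, all of them among the 731; 95.2% of those with a listed start were at a 5′ end, 40.5% held the X-box pattern, the median summit gap was 10 bp and 7 ciliary genes had a region. The share at a 5′ end was 95.7% with a 500 bp limit, 87.9% with 2 kb and 94.5% with the better-scoring 50% of each list, which gave a pattern share of 40.7% and a median gap of 12 bp. The pattern share was 4.75% in strict form, 30.1% with 1 to 2 bases between half-sites and 53.4% with the summit inside the window.

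The odds ratio for the X-box pattern against RFX1+RFX2+RFX3 regions lost its call with 1250 peaks per list (0.461) and in the shared range of RFX1 −log10 q (0.695), and that of the strict form did so at 0.315 and 0.487, and at 0.461 with the summit inside the window (also chosen after seeing the data). Fewer regions were tested in each case. Odds ratios that crossed 1 had missed the threshold both ways. Against RFX1+RFX2+RFX3 regions these were, with 1250 peaks, 0.421 for NRF1, 1.38 for ETS, 1.3 for CCAAT and 0.802 for the GC box, and in the shared range 1.09 for the 5′ end, 1.11 for CCAAT and 0.824 for the GC box. Against RFX1-only regions they were, with 1250 peaks, 0.22 for the 5′ end, 0.775 for the X-box pattern and 0.709 for CpG-rich windows, in the shared range 0.995 for CpG-rich windows and 0.971 for ETS, 0.819 for CpG-rich windows with the summit inside the window, and 1.03 for CCAAT with the 500 bp limit. The other 55 values kept their direction and side of the threshold or moved within their interval or 1.5 times the count. Without depths, a missing RFX2 peak cannot be told apart from one below detection.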
